A study of Rattus norvegicus with 36 samples.

Results

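The genes described are the 3 fibrillar collagen genes Col1a1 (ENSRNOG00000003897), Col1a2 (ENSRNOG00000011292) and Col3a1 (ENSRNOG00000003357), picked out by these Ensembl identifiers. They are 3 of 32883 genes listed in the count table, and all 3 were among the 15644 genes with enough counts to be tested. The symbols were given with the identifiers; no table at hand pairs them, so the pairing was not tested. RNA was sequenced from precision-cut rat lung slices, thin living sections of lung held in culture, in a study that set out to characterise this model for anti-fibrotic drugs. The 36 libraries form 6 groups of 6: slices without treatment at time 0, slices without treatment at time 72, slices given TGFb until 72, and slices given TGFb together with Pirf, Nint or Sora until 72. The labels state neither the unit of time nor any dose, rat strain or age, and they do not say whether the replicates of a group are separate animals. The p-values therefore measure the spread between these libraries, which may be technical. Pirf, Nint and Sora are read as pirfenidone, an anti-fibrotic drug, and nintedanib and sorafenib, inhibitors of several receptor kinases. All drug groups also carry TGFb, so no group shows a drug alone.

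Collagens are the main tensile proteins of the lung's connective tissue. Col1a1 and Col1a2 encode the chains of type I collagen, which joins a pair of alpha-1 chains with a single alpha-2 chain in a triple helix. Col3a1 encodes the only chain of type III collagen, which forms fibrils together with type I. Fibroblasts and myofibroblasts are their chief source, TGFb is a classical inducer of their transcription, and their accumulation as stiff matrix defines fibrosis. In whole slices a change in the number of collagen-making cells and a change in RNA per cell cannot be told apart.

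Levels are given as TMM-scaled CPM, the counts of a gene relative to the effective size of its library, where TMM, the trimmed mean of M values, corrects for differences in library composition. Total counts lay between 15886958 and 32933012 per library. The lowest count of a member in any library was 369, with a counting error of 5.21%, so counting error was small beside most differences described here. The values do not account for gene length, and levels are therefore compared between groups and not between genes. Counts of Col1a1 and Col3a1 were whole numbers in all 36 libraries. Counts of Col1a2 were not whole in any of the 36, as for 8.44% of the genes tested, which is what RSEM gives when it shares reads with another gene; Col1a2 levels are uncertain to the extent of those reads.

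Of the 3 genes, RefSeq's promoter table for the rat build GRCr8 held Col1a2. The stretch shown runs from 250 to 141 bases before the annotated start, at chr4:33518307-33518416 on the plus strand. It is shown because it holds matches to the letters of general promoter elements. Capitals mark ATTGG, which is CCAAT read on the other strand, and TATAAA.
Col1a2: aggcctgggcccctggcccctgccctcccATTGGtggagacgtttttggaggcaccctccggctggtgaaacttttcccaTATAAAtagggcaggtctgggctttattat
The CCAAT match begins 221 bases and the TATAAA match 170 bases before the annotated start, farther than such elements usually lie from where transcription begins. On both strands, CCAAT occurred in 37.5% and TATAAA in 14.2% of the 33469 promoter windows in the table. The SMAD-type sequence CAGAC occurred at 156 and 23 bases before the start, both times on the minus strand, and in 50.1% of all windows. GGGCGG was not found in the Col1a2 window and occurred in 33.1% of all windows. A match describes letters only.

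Without treatment the collagens stood below their levels with TGFb alone at both times. Col1a1 ranged from 23.4 to 139 CPM at time 0 with a median of 28.8, and from 24.7 to 59.0 CPM at 72 with a median of 36.3. Col1a2 ranged from 26.7 to 195 CPM at time 0 (median 31.8) and from 50.3 to 103 CPM at 72 (median 80.8). Col3a1 ranged from 194 to 769 CPM at time 0 (median 340.1) and from 221 to 389.8 CPM at 72 (median 273). The groups overlapped for every gene, and replicate 3 at time 0 was the highest time-0 library for all 3.

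None of the 3 genes was called between 72 and 0 by edgeR, whereas 73.2% of all tested genes were; 0 of 3 had an unadjusted p under 0.05, DESeq2 called 0 of 3 and limma 1 of 3 (Col1a2). The log2 fold changes were -0.39 for Col1a1 (SE 0.31, adjusted p = 0.263), 0.43 for Col1a2 (SE 0.33, adjusted p = 0.251) and -0.38 for Col3a1 (SE 0.24, adjusted p = 0.158). These values rested on replicate 3 at time 0. Without it Col1a2 averaged 32.0 ± 6.24 CPM (SD, n = 5) at time 0 against 79.4 ± 18.03 (n = 6) at 72, and was called higher at 72, with a log2 fold change of 1.32 (adjusted p = 3.63e-07), as were 38.3% of all genes tested in that fit. Without that library Col1a1 changed sign to 0.21 (adjusted p = 0.455), and Col3a1 lay at -0.05 (adjusted p = 0.85).

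TGFb raised all 3 collagens. Col1a1 stood between 333 and 690.2 CPM with TGFb (median 463), and its mean went from 39.5 ± 13.9 CPM (SD, n = 6) in untreated slices to 476 ± 118. Col1a2 lay between 439 and 530.0 CPM with TGFb (median 487), and its mean went from 79.4 ± 18.03 to 487 ± 42.0. Col3a1 lay between 1149 and 2645 CPM (median 1443), and its mean went from 293 ± 73.4 to 1642 ± 531. For each gene the 6 TGFb libraries lay above the 6 untreated ones at 72, a separation in this direction that 6.84% of all tested genes showed. Replicate 3 with TGFb was the highest of its group for Col1a1 and Col3a1, and stood level with replicate 2 at the top for Col1a2.

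**Figure D1:**
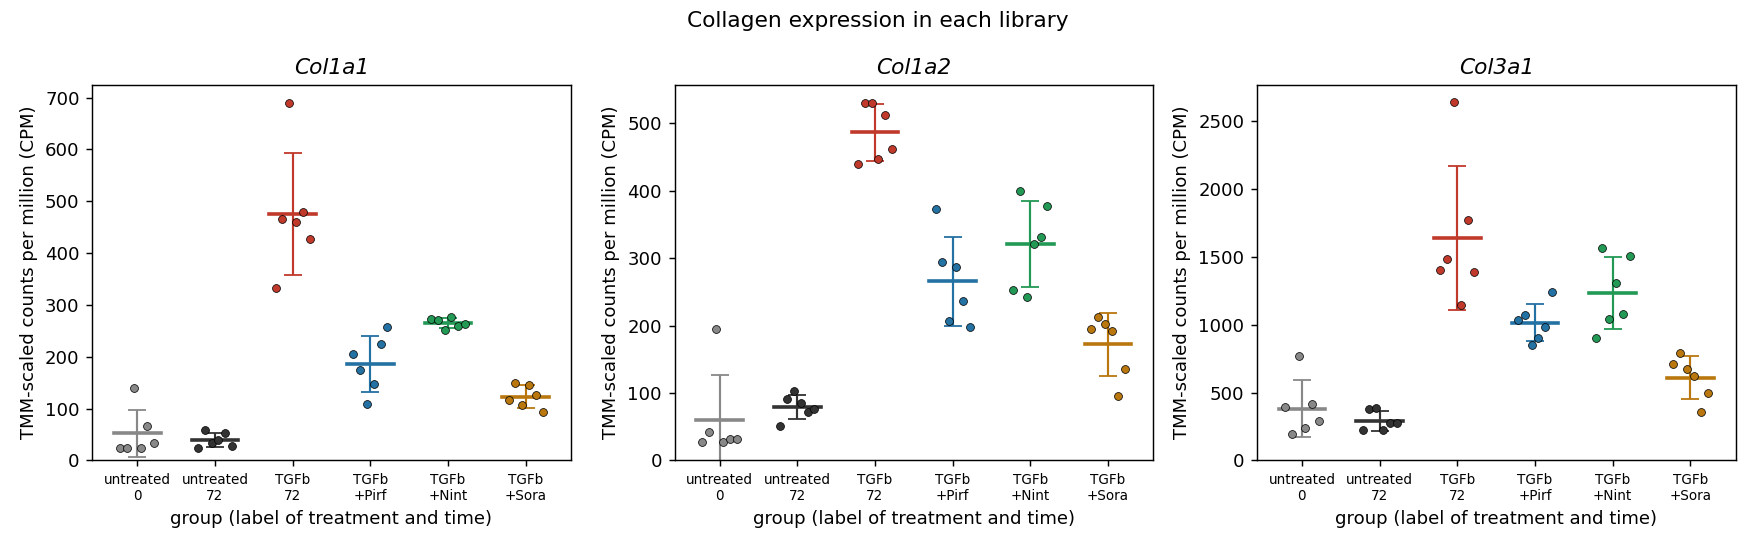
TMM-scaled CPM (vertical axes, linear) of Col1a1, Col1a2 and Col3a1 in each of the 36 libraries, by group; points are libraries, thick lines are means and whiskers are 1 SD (n = 6), and the lower whisker of Col1a2 at time 0 ends at the axis because it would fall below 0. All TGFb libraries lie above the untreated ones, the Sora libraries lie lowest among the drug groups on average, and 1 untreated library at time 0 stands above the other 5 in each panel.

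The rise was 12.03-fold for Col1a1 (95% interval 7.44 to 19.4), 6.13-fold for Col1a2 (3.74 to 10.02) and 5.59-fold for Col3a1 (3.90 to 8.03). On the log2 scale these are 3.59 (SE 0.34, adjusted p = 1.33e-09), 2.61 (SE 0.35, adjusted p = 7.17e-07) and 2.48 (SE 0.26, adjusted p = 6.98e-09). All 3 of 3 members were called higher, as were 14.0% of all tested genes, and 12.4% were called lower. Without scaling factors the numbers called over all genes were 1363 higher and 2543 lower, in place of 2187 and 1943. The median log2 fold change of the members was 2.61, and that of all genes 0.02. Ordered by log2 fold change among the 15644 genes, Col1a1 was at place 21 from the top, Col1a2 at 61 and Col3a1 at 79.

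Pirf was compared with TGFb alone to describe the collagens under this drug. All 3 were lower. Col1a1 lay between 109 and 257 CPM with Pirf (median 189.9, mean 186 ± 53.5), below all 6 libraries with TGFb alone. Col1a2 lay between 197 and 373 CPM (median 262, mean 266 ± 65.9), also below all 6. Col3a1 lay between 855 and 1242 CPM (median 1009.6, mean 1015 ± 138), with 5 of 6 libraries below the lowest with TGFb alone. Of all tested genes, 16.4% had all Pirf libraries below all those with TGFb alone.

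Among the Pirf libraries the genes did not rank alike: replicate 6 was the highest for Col1a1 and Col3a1 and the lowest for Col1a2. All 3 falls passed the test, with log2 fold changes of -1.35 for Col1a1 (SE 0.31, adjusted p = 0.000548), -0.87 for Col1a2 (SE 0.33, adjusted p = 0.027) and -0.69 for Col3a1 (SE 0.24, adjusted p = 0.0175). Group means with Pirf were 39.1%, 54.6% and 61.8% of those with TGFb alone for Col1a1, Col1a2 and Col3a1. The 3 of 3 calls stand beside a background of 26.4% of genes called lower and 25.1% called higher, or 2594 lower and 5973 higher without scaling factors. The median of the members was -0.87, against 0.00 for all genes. The Col1a2 call was lost without Pirf replicate 3, 5 or 6 (adjusted p = 0.0564, 0.0518 and 0.0584), and the Col3a1 call without TGFb-alone replicate 3 (log2 fold change -0.49, adjusted p = 0.0843). Without scaling factors, which moved the median of all genes by 0.15, both calls were lost (adjusted p = 0.0753 and 0.0729), as they were in a test against a fold of 1.2 (adjusted p = 0.0733 and 0.061).

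With Nint the 3 genes had lower means than with TGFb alone, but none passed the test in the fit of all 36 libraries. Col1a1 was tightly grouped, between 251 and 277 CPM (median 267, mean 266 ± 9.90), and all 6 Nint libraries lay below the lowest with TGFb alone. Col1a2 lay between 242 and 400.1 CPM (median 326, mean 321 ± 64.2), again below all 6. Col3a1 lay between 905 and 1564 CPM (median 1194, mean 1235 ± 269), with 3 of 6 libraries below the lowest with TGFb alone. All Nint libraries below all with TGFb alone was seen for 1.91% of tested genes.

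The log2 fold changes with Nint were -0.84 for Col1a1 (SE 0.31, adjusted p = 0.158), -0.60 for Col1a2 (SE 0.33, adjusted p = 0.467) and -0.41 for Col3a1 (SE 0.24, adjusted p = 0.522). None of 3 was called, where 2.21% of all genes were called lower and 0.882% higher; 1 of 3 (Col1a1) had an unadjusted p under 0.05 with edgeR, and DESeq2 and limma called 0 of 3. Their 95% intervals ran from -1.47 to -0.21, from -1.27 to 0.07 and from -0.90 to 0.08, so falls of more than 2-fold are within the interval for Col1a1 and Col1a2. Whether Col1a1 and Col1a2 passed changed with the time-0 libraries, which enter the shared estimate of spread although they are in neither group. In a fit of the 30 libraries at 72, with the same fold changes to 2 decimals, Col1a1 was called lower (adjusted p = 0.00907) and so was Col1a2 (adjusted p = 0.0476), and Col3a1 was not (adjusted p = 0.286); 3.34% of the 15403 genes tested in that fit were called lower. Leaving out replicate 3 at time 0 alone gave adjusted p = 0.0349 for Col1a1, 0.0599 for Col1a2 and 0.398 for Col3a1, with 2.30% of genes called lower. Without TGFb-alone replicate 3 the log2 fold change of Col3a1 was -0.21 (adjusted p = 0.869). The coefficient of variation of Col1a1 was 3.73% among the Nint libraries and 88.4% among those at time 0.

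The Sora group had the lowest mean of the TGFb-treated groups for each collagen. Col1a1 lay between 94.3 and 148 CPM (median 122, mean 123 ± 21.7), Col1a2 between 95.4 and 213 CPM (median 193, mean 172 ± 46.3) and Col3a1 between 356 and 789.8 CPM (median 650.1, mean 609 ± 157). Each gene was lower in all 6 Sora libraries than in all 6 with TGFb alone, which held for 2.94% of tested genes. Replicate 5 was the lowest Sora library for Col1a2 and Col3a1, but not for Col1a1.

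With Sora the log2 fold changes were -1.95 for Col1a1 (SE 0.32, adjusted p = 0.000105), -1.501 for Col1a2 (SE 0.34, adjusted p = 0.00273) and -1.43 for Col3a1 (SE 0.25, adjusted p = 0.000209), all called falls. These are 3.86-fold, 2.83-fold and 2.69-fold lower levels, with 95% intervals of 2.47 to 6.04, 1.76 to 4.54 and 1.90 to 3.82. The 3 of 3 calls stand beside 8.37% of all genes called lower and 7.01% called higher, or 684 lower and 2173 higher genes without scaling factors. The members' median was -1.501, against 0.00 for all genes, which moved by 0.10 without scaling factors. By log2 fold change from the lowest, Col1a1 was at place 21, Col1a2 at 61 and Col3a1 at 80 of 15644. The same TGFb-alone libraries serve in the TGFb comparison and in all 3 drug comparisons.

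**Figure D2:**
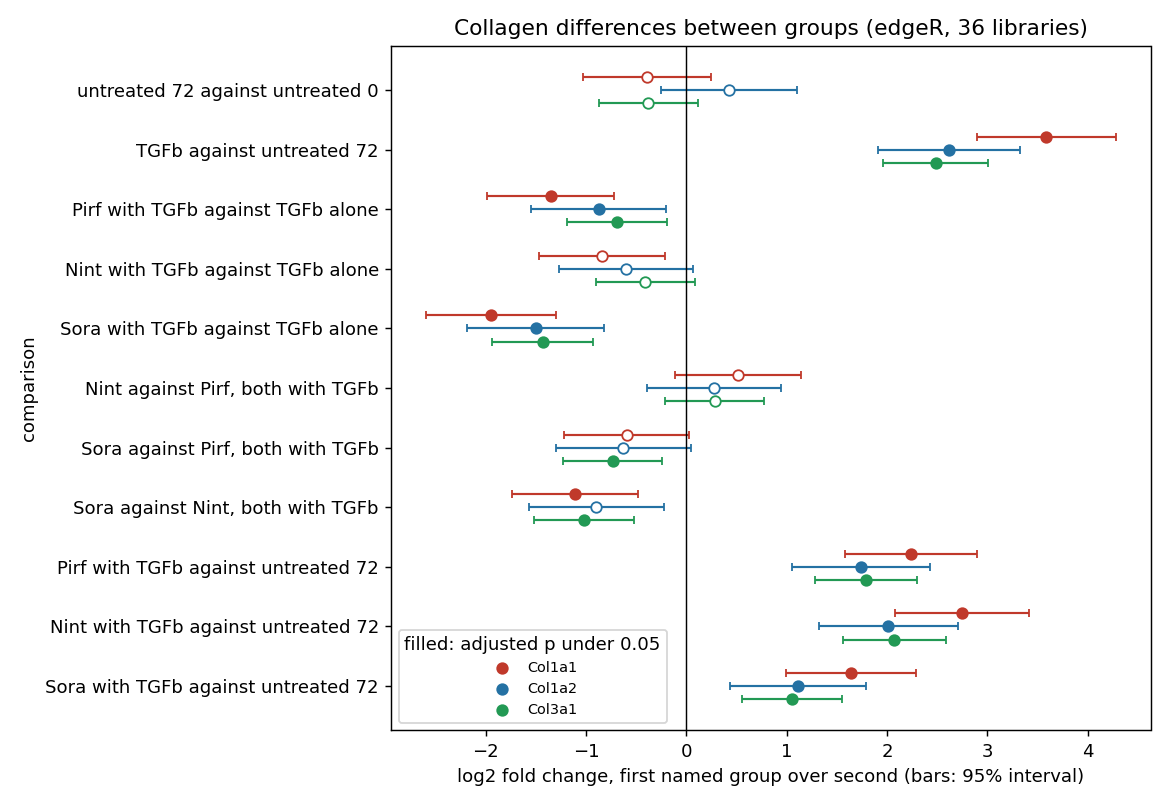
Log2 fold change (horizontal axis) of each collagen in 11 comparisons (vertical axis), first named group over second, from 1 edgeR fit of 36 libraries; bars are 95% intervals and filled points have an adjusted p under 0.05. The points lie right of 0 wherever TGFb, alone or with a drug, is compared with untreated slices at 72, and left of 0 for each drug against TGFb alone, with open points for Nint.

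Whether the collagens returned to the untreated level under the drugs was read from each drug group against untreated slices at 72. They stayed higher in all 9 cases. With Pirf the levels were 4.71-fold (95% interval 2.99 to 7.42), 3.34-fold (2.07 to 5.39) and 3.46-fold (2.43 to 4.92) those of untreated slices for Col1a1, Col1a2 and Col3a1 (adjusted p = 8.67e-07, 6.77e-05 and 5.06e-07). With Nint they were 6.72-fold (4.22 to 10.7), 4.04-fold (2.49 to 6.54) and 4.21-fold (2.95 to 6.01), with adjusted p = 1.02e-07, 3e-05 and 1.37e-07. With Sora they were 3.11-fold (1.99 to 4.87), 2.16-fold (1.35 to 3.46) and 2.08-fold (1.47 to 2.93), with adjusted p = 0.00031, 0.0139 and 0.002. All 3 members were called higher in each comparison. Of the 15644 genes tested, 4061 were called higher with Pirf, 1969 with Nint and 2056 with Sora. Calls in either direction made up 52.0% of all genes for Pirf, 26.4% for Nint and 25.0% for Sora. Sora replicate 5, at 95.4 CPM of Col1a2 and 356 CPM of Col3a1, lay inside the untreated range for these genes, and the Col1a2 call with Sora was lost against a fold of 1.2 (adjusted p = 0.053). Every other drug library lay above all untreated libraries at 72 for each gene, and groups separated in this way were seen for 16.4% of tested genes with Pirf, 7.26% with Nint and 4.94% with Sora.

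The drugs were also compared with each other, although no label states a dose. Sora stood below Nint, with log2 differences of -1.11 for Col1a1 (SE 0.31, adjusted p = 0.0206), -0.90 for Col1a2 (SE 0.33, adjusted p = 0.0714) and -1.02 for Col3a1 (SE 0.24, adjusted p = 0.00769), and the groups of 6 did not overlap for any of the 3, as for 2.08% of tested genes. Thus 2 of 3 were called lower with Sora, where 4.56% of genes were called lower and 6.43% higher, or 432 and 2148 genes without scaling factors. Sora stood below Pirf by a called margin for Col3a1, at -0.74 (SE 0.24, adjusted p = 0.0153), with no overlap between the groups, as for 10.7% of tested genes. For Col1a1 the difference between Sora and Pirf was -0.60 (95% interval -1.22 to 0.03, adjusted p = 0.119) and for Col1a2 it was -0.63 (-1.30 to 0.04, adjusted p = 0.125). So 1 of 3 was called lower with Sora than with Pirf, with 20.3% of all genes called lower and 21.8% higher (3686 and 2715 genes without scaling factors). Against a fold of 1.2 these 3 calls were lost, with adjusted p = 0.117 for Col1a1 and 0.0555 for Col3a1 between Sora and Nint, and 0.0645 for Col3a1 between Sora and Pirf.

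Nint and Pirf did not differ past the threshold. Nint minus Pirf was 0.51 for Col1a1 (95% interval -0.11 to 1.14, adjusted p = 0.158), 0.27 for Col1a2 (-0.40 to 0.94, adjusted p = 0.501) and 0.28 for Col3a1 (-0.21 to 0.78, adjusted p = 0.333). None of 3 was called by edgeR, DESeq2 or limma, and 0 of 3 had an unadjusted p under 0.05 with edgeR, in a comparison where 26.5% of genes were higher and 28.2% lower with Nint (2660 and 6258 genes without scaling factors, with a shift of -0.15 in the median). In the fit of the 30 libraries at 72 alone, Col1a1 was called higher with Nint than with Pirf (adjusted p = 0.0259), and Col1a1 and Col1a2 were called lower with Sora than with Pirf (adjusted p = 0.0136 and 0.0055), where 28.5% of genes were called higher with Nint and 22.9% lower with Sora. In that fit Col1a2 was called lower with Sora than with Nint (adjusted p = 0.00154), as were 7.01% of genes. Leaving out only replicate 3 at time 0 gave the Sora calls as well (adjusted p = 0.0327, 0.00467 and 0.00137 in the same order, with 21.6% of genes called lower against Pirf and 6.47% against Nint), but not the Col1a1 call between Nint and Pirf (adjusted p = 0.0542). The order of the group means was TGFb alone, Nint, Pirf, Sora for each gene, and the neighbours Nint and Pirf were not resolved for Col1a2 or Col3a1 in either fit. In the fit of all 36 libraries, Sora and Pirf were not resolved for Col1a1 or Col1a2, nor Nint and TGFb alone for any of the 3.

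**Figure D3:**
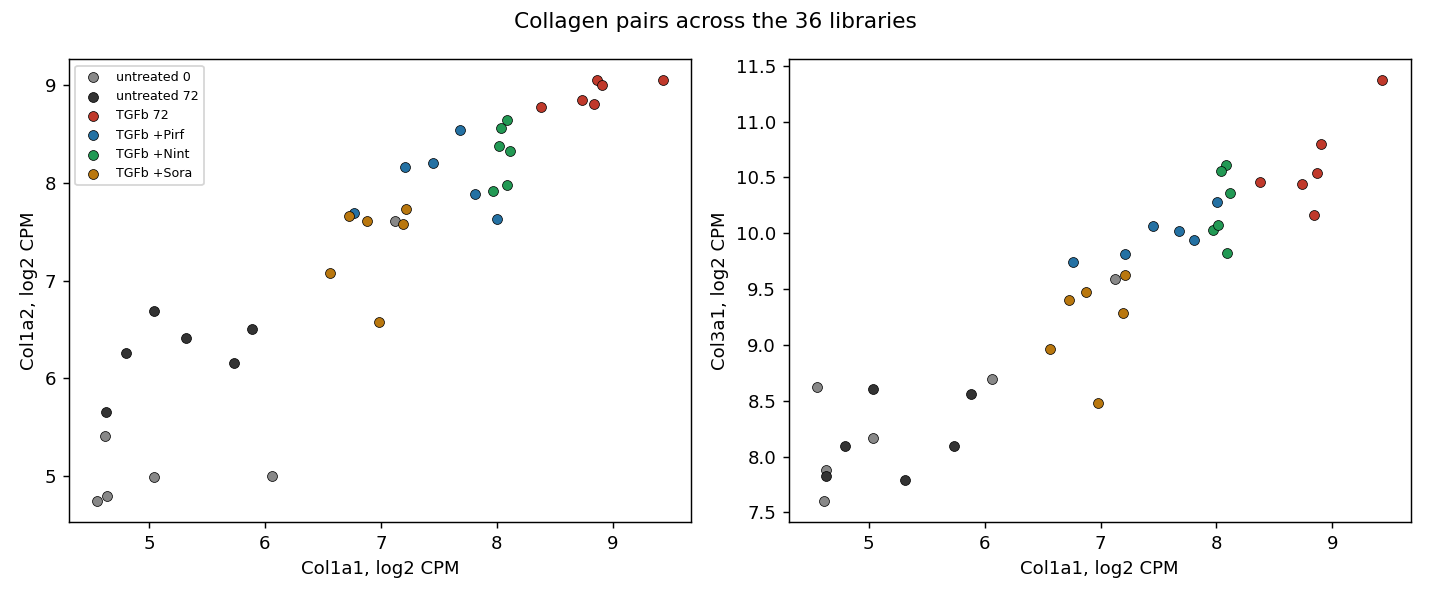
Log2 CPM of Col1a2 (left) and Col3a1 (right), on the vertical axes, against Col1a1 in the 36 libraries, coloured by group. The TGFb libraries lie at the upper right, the drug groups between these and the untreated libraries on average, and the untreated libraries at the lower left except replicate 3 at time 0, which lies among the Sora libraries.

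The genes did not keep a constant proportion to each other. The ratio of 2 counts within a library does not depend on scaling factors, and its change was tested by a two-sided exact permutation test of 6 against 6 libraries, with adjustment over 15 tests. The 3 ratios are linked, since any pair of them fixes the remaining one. The log2 ratio of Col1a1 to Col1a2 was -1.05 ± 0.47 (SD, n = 6) in untreated slices at 72 and -0.06 ± 0.26 with TGFb, a rise of 0.98 (exact permutation p = 0.0022, the smallest that this design allows, adjusted p = 0.0108). Col1a1 counts were thus 0.484 times those of Col1a2 in untreated slices at 72 and 0.958 times with TGFb, as geometric means. At time 0 they were 0.943 times those of Col1a2. Gene length is not accounted for in these ratios, so only their change between groups is read. The log2 ranges in untreated slices at 72 and with TGFb did not overlap, at -1.65 to -0.42 and -0.40 to 0.38.

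Col3a1 to Col1a1 moved the opposite way with TGFb, from 2.93 ± 0.49 to 1.77 ± 0.26 on the log2 scale, again without overlap (exact permutation p = 0.0022, adjusted p = 0.0108). Col3a1 to Col1a2 was 1.88 ± 0.28 and 1.71 ± 0.34, a difference of -0.18 that did not pass (exact permutation p = 0.325, adjusted p = 0.375). The Col1a1 message therefore rose more than both others with TGFb, and the rises of Col1a2 and Col3a1 were not told apart. With Pirf, Col3a1 to Col1a1 rose from 1.77 ± 0.26 to 2.49 ± 0.30 (exact permutation p = 0.0022, adjusted p = 0.0108), with no overlap. With Nint it was 2.19 ± 0.31 (exact permutation p = 0.0303, adjusted p = 0.0758) and with Sora 2.28 ± 0.43 (exact permutation p = 0.039, adjusted p = 0.0835), so neither passed the correction. The other 6 drug tests of ratios had adjusted p of 0.18 to 0.436. Leaving out a single library changed some of these calls: without Nint replicate 1 the Nint change of Col3a1 to Col1a1 was called (adjusted p = 0.026), and without Sora replicate 5 the Sora changes of Col3a1 to Col1a1 and Col1a1 to Col1a2 were called (adjusted p = 0.0162 and 0.0195). Without Pirf replicate 6 the Pirf change of Col1a1 to Col1a2 was called (adjusted p = 0.0487), and without TGFb-alone replicate 3 the Nint and Sora changes of Col3a1 to Col1a2 were (adjusted p = 0.026 and 0.0278). Each adjusted p of these leave-outs comes from exact permutation tests.

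Between 0 and 72 without treatment the log2 ratio of Col1a1 to Col1a2 fell from -0.08 ± 0.64 to -1.05 ± 0.47 (exact permutation p = 0.0108, adjusted p = 0.0325), and Col3a1 to Col1a2 fell from 3.01 ± 0.78 to 1.88 ± 0.28 (exact permutation p = 0.0087, adjusted p = 0.0325). Both share the denominator Col1a2, the gene whose counts are not whole, and Col3a1 to Col1a1 was 3.09 ± 0.57 and 2.93 ± 0.49 (exact permutation p = 0.626, adjusted p = 0.626). The first of these time calls was lost without time-0 replicate 1, 4, 5 or 6 or untreated replicate 1, 3, 4 or 6 at 72, and the second without any one untreated library at 72 (adjusted p up to 0.0714).

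**Figure D4:**
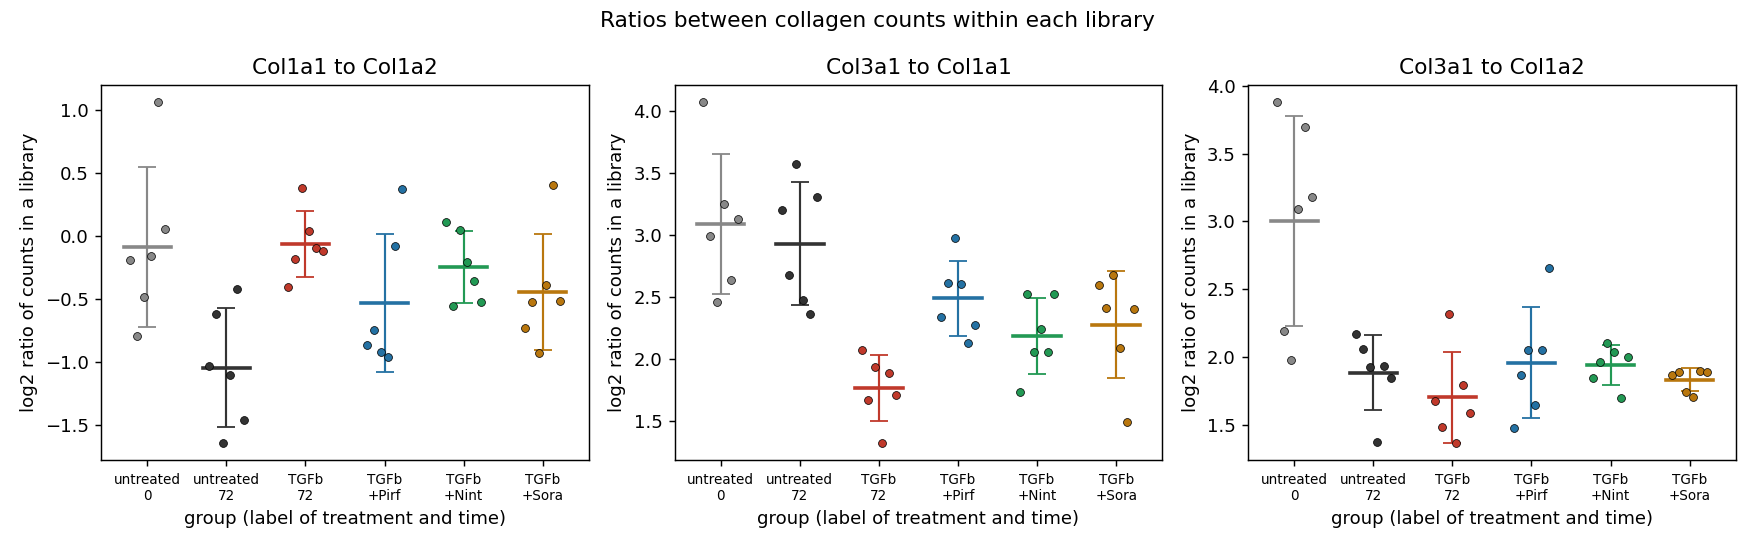
Log2 ratio of counts (vertical axes) between pairs of collagen genes within each library, by group; points are libraries, thick lines means and whiskers 1 SD (n = 6). In the first panel the TGFb libraries lie above the untreated ones at 72, and in the second panel they lie below them and below all Pirf libraries.

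As a share of all counts in a library, the 3 genes together made up 0.0479% ± 0.0322 (SD, n = 6) at time 0, 0.042% ± 0.0111 in untreated slices at 72 and 0.253% ± 0.0763 with TGFb. With Pirf, Nint and Sora the shares were 0.157% ± 0.021, 0.177% ± 0.037 and 0.0942% ± 0.025. The highest library, with TGFb alone, reached 0.394%.

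Other genes followed the collagens closely. Likeness was the Pearson correlation of log2 CPM over the 36 libraries with the mean of the standardised members, given as a description because the libraries share treatment groups. The closest was ENSRNOG00000008749 (r = 0.986), at 39.4 ± 5.59 CPM in untreated slices at 72, 211 ± 42.0 with TGFb, and 132 ± 22.6, 157 ± 16.1 and 85.8 ± 16.1 with Pirf, Nint and Sora. The next was ENSRNOG00000003736 (r = 0.9746), at 149.7 ± 19.1, 754 ± 131, 499.7 ± 76.4, 578 ± 85.3 and 394 ± 75.0 CPM in the same order. Both had the order of groups that the collagens had at 72, which is likely for genes picked by this correlation. The most opposite were ENSRNOG00000021234 (r = -0.892), at 3.67 ± 0.445 CPM in untreated slices and 0.875 ± 0.172 with TGFb, and ENSRNOG00000053891 (r = -0.89), at 18.6 ± 5.87 and 6.30 ± 1.26 CPM. All 4 are in the authors' table of protein-coding genes.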

How the data were processed

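The authors' deposited table holds expected counts per gene, estimated with RSEM on the build Rnor_6.0, per the submitters' processing notes. The authors also deposited log2 CPM values of expressed protein-coding genes. The aligner, annotation release and strand setting of the counting are not given in these sources. Libraries were stranded total RNA after ribosomal depletion, per the labels' protocols. Groups and replicate numbers came from the titles.

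Expected counts were rounded and 36 libraries entered 1 edgeR 4.0.16 quasi-likelihood fit (R 4.3.3; filterByExpr, TMM, 6 group means, no covariate). A gene was called at a Benjamini-Hochberg adjusted p under 0.05 over 15644 genes. SE is the log2 fold change divided by the root of its F statistic. Replicate numbers were not used to pair the samples, since the labels do not say what they stand for. Alternatives used limma 3.58.1, DESeq2 1.42.0, other scaling, filters and sets of libraries; leaving out each library of the groups compared was planned, whereas for comparisons at 72 the fits without the time-0 group or its replicate 3 were added after seeing the data. The members and lists were chosen with earlier results of these data known. Genes were named as the members plus the 2 most positively and the 2 most negatively correlated IDs. No reference table pairs the Ensembl IDs with symbols (0 matched), so related collagen, TGFb pathway and cell type marker lists were not analysed here.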

Additional observations from a re-analysis of the deposited data

Results flagged for a closer look

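In 36 groups of 6 values (3 genes and 3 ratios in 6 groups), 2 had a library far from the other 5. With independent, normally distributed values, chance alone would flag about 1 in 20 such groups, or 1.8 of 36. The values share libraries and are not independent, so the number seen cannot be set against this one. Both flags were replicate 3 of the untreated slices at time 0. It held 139 CPM of Col1a1 and 195 CPM of Col1a2, where the next highest libraries held 66.8 and 42.4. Its Col3a1, at 769 CPM, was also the highest of its group but not far enough from the next, at 415, to be singled out. Its part in the results at time 72 is given by the fits without it, and what sets it apart was not tested.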

How the results depend on the processing

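The TGFb rise, the Col1a1 fall with Pirf, the falls with Sora and the higher levels with Pirf or Nint than in untreated slices kept their direction and call for each gene under every alternative run. So did Col1a1 and Col3a1 with Sora against untreated slices. Against a fold of 1.2 calls were lost for Col1a2 (-0.87) and Col3a1 (-0.69) with Pirf, Col3a1 for Sora against Pirf (-0.74), Col1a1 (-1.11) and Col3a1 (-1.02) for Sora against Nint, and Col1a2 with Sora against untreated slices (1.11). Without scaling factors Col1a2 (-0.73) and Col3a1 (-0.56) with Pirf were lost. Col1a2 was gained between 0 and 72 with limma (0.85; 0.88 on the deposited log2 CPM), and for Sora against Nint with limma (-0.93 on either input), DESeq2 (-0.91) and the replicate block (-0.96). In fits of 12 libraries Col1a1 (-0.83) and Col1a2 (-0.59) were gained with Nint, Col1a1 for Nint against Pirf (0.52), Col1a1 (-0.59) and Col1a2 (-0.62) for Sora against Pirf, and Col1a2 for Sora against Nint (-0.91). In the 30 libraries at 72 the same 6 were gained, at -0.84, -0.60, 0.51, -0.60, -0.63 and -0.90.

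Whether replicate numbers pair the samples was not settled, since the labels do not say what they stand for. Between libraries of different groups, the median correlation of deviations was -0.0043 for the same number and -0.0032 for different numbers. Correlations of same-numbered deviations ran from -0.313 to 0.561. Of 36 libraries, 8 were closest to their own number, where each could be closest to any of 6 numbers. Permuting within the replicate block cannot give a p below 0.0312. After adjustment over 15 tests such a p passes only if most of the tests reach it, so a loss of calls was nearly fixed in advance. All 5 ratio calls were lost: Col1a1 to Col1a2 with time (-0.96) and TGFb (0.98), Col3a1 to Col1a1 with TGFb (-1.16) and Pirf (0.72), and Col3a1 to Col1a2 with time (-1.12).

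Leaving out 1 library moved calls within these ranges. For time they were -0.54 to 0.21 (Col1a1, which changed sign at 0.21) and 0.28 to 1.32 (Col1a2). For Pirf they were -0.99 to -0.80 (Col1a2) and -0.78 to -0.49 (Col3a1), and for Nint -0.92 to -0.69 (Col1a1). For Sora against Pirf they were -0.71 to -0.48 (Col1a1) and -0.70 to -0.50 (Col1a2), and for Sora against Nint -0.98 to -0.78 (Col1a2). For Col1a1 to Col1a2 the ranges were -1.10 to -0.73 with time, -0.65 to -0.38 with Pirf and -0.55 to -0.29 with Sora. For Col3a1 to Col1a1 they were -0.29 to 0.037 with time (the sign changed at 0.037), 0.33 to 0.51 with Nint and 0.42 to 0.67 with Sora. For Col3a1 to Col1a2 they were -1.33 to -0.95 with time, 0.17 to 0.36 with Nint and 0.059 to 0.25 with Sora.

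Numbers of genes called over the whole table moved by more than 1.5 times in some fits. Against a fold of 1.2 they were 1779 for TGFb, 4099 for Pirf, 99 for Nint, 410 for Sora, 4602 for Nint against Pirf, 2520 for Sora against Pirf, 186 for Sora against Nint, and 4214, 1762 and 1143 for Pirf, Nint and Sora against untreated slices. Sora against Nint had 1133 calls without a filter and 942 to 2819 with 1 library left out, moving past this limit without Sora replicate 1, 2, 3, 4 or 5 or Nint replicate 1, 3 or 5. Sora had 1423 in its 12 libraries, and Nint had 781 in the 30 libraries at 72 and 299 to 572 with 1 left out, with 299 and 309 without TGFb-alone replicates 3 and 2. The causes of these differences were not tested.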
